A study of Mus musculus with 6 samples.

Results

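The 10 genes described here encode the enzymes that carry glucose through glycolysis, 1 gene for each step of the pathway. They are Hk1, Gpi1, Pfkl, Aldoa, Tpi1, Gapdh, Pgk1, Pgam1, Eno1 and Pkm, in the order of the steps, and they were picked by symbol out of 16095 genes with deposited values. All 10 were present and all 10 passed the filter for testing, a mean of at least 10 normalized counts over the libraries, which left 14822 genes.

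Polyadenylated RNA of sorted mouse kidney epithelial cells was sequenced in 6 libraries. The Terf1_flox group held 3 libraries from Trf1 flox/flox mice (written Trf1lox/lox in the treatment protocol), and the control group held 3 from Trf1+/+ mice. Terf1 encodes TRF1, a protein of the shelterin complex that caps telomeres. Every mouse in both groups also carried KFP+/t, a fluorescent reporter, and Cre+/t, a tamoxifen-activated CreERT2 driven by the Ksp-cadherin promoter, so that recombination is directed to tubule epithelium and not to other kidney cells. Both groups received tamoxifen by intraperitoneal injection 3 times a week for 8 weeks, beginning at 6 to 8 weeks of age, in males and females. Cells were sorted on EpCAM staining and the reporter after enzymatic digestion. The labels do not tell whether 1 mouse or several went into a library, so each SD is the spread between libraries.

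Glycolysis splits glucose into pyruvate in the cytosol. Its first reactions spend ATP to make a phosphorylated sugar, phosphofructokinase commits that sugar to the pathway, and aldolase cuts it into a pair of interconvertible triose phosphates. The later reactions yield NADH and ATP, and pyruvate is then reduced to lactate or oxidized in mitochondria. In the kidney the proximal tubule makes glucose and relies mainly on fatty acids, whereas glycolytic enzyme activity is higher along the distal nephron. Many genes of the pathway are known targets of the hypoxia-inducible factor (HIF), and most steps are served by several isozymes from separate genes.

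The libraries held 13870931 to 15375471 reads in Terf1_flox and 13582140 to 17680986 in control. Terf1 had 62.0, 24.6 and 25.3 normalized counts in Terf1_flox libraries, against 529.6, 486.1 and 663.9 in control libraries. Markers of the distal nephron were abundant in both groups. Those of the thick ascending limb summed to 195315 to 209621 normalized counts in Terf1_flox and 235007 to 284466 in control, and those of the distal convoluted and connecting tubule to 117748 to 202954 and 119423 to 210849. Proximal tubule markers summed to 1869 to 6974 in Terf1_flox and 2341 to 2900 in control. Of the 5 podocyte and 8 endothelial markers 0 had a row with values here, and 1 of 9 fibroblast and pericyte markers did, at 3.04 to 15.2 and 1.76 to 14.2. Macrophage markers (4 of 11 with a row) summed to 143 to 230 in Terf1_flox and 271 to 347 in control, lymphocyte markers (3 of 10) to 24.6 to 136 and 4.74 to 17.2, and erythroid markers (5 of 8) to 151 to 610 and 441 to 833. The female-specific transcript Xist had reads in every library, while Y-linked Ddx3y stood at 3.0 in Terf1_flox library 3, against 914.8 and 951.4 in the other 2 Terf1_flox libraries and 123 to 611 in control.

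The promoters of 4 of the genes are shown because the values of these genes carry the contrast that runs through the text below. Eno1, Pkm and Tpi1 had the smallest p-values of the 10, whereas Pgk1 overlapped between the groups. The sequences are from RefSeq on build GRCm38.p6, read in the direction of transcription, and each covers 250 bases before and 50 after an annotated start. Capitals mark ACGTG and GCGTG on either strand, the core that HIF binds in hypoxia response elements. The regions are chr4:150236947-150237246 on the plus strand for Eno1, chr9:59656977-59657276 on the plus strand for Pkm, chr6:124814109-124814408 on the minus strand for Tpi1 and chrX:106186850-106187149 on the plus strand for Pgk1.
Eno1: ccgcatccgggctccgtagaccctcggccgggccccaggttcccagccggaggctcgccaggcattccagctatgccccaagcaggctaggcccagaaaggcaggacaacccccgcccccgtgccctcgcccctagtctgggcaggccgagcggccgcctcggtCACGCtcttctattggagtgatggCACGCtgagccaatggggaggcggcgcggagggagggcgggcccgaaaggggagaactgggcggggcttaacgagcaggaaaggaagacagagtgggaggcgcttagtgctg
Pkm: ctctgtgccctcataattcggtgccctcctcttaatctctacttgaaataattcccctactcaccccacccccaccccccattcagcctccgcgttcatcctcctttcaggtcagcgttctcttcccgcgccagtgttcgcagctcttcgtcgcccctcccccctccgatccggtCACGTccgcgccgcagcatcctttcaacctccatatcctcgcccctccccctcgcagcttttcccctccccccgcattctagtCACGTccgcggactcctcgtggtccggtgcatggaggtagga
Tpi1: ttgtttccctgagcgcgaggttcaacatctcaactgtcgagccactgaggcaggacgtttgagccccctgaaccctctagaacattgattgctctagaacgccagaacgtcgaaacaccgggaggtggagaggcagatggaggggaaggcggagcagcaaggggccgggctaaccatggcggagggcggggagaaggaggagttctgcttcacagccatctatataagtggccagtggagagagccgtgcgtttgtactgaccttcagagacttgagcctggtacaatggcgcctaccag
Pgk1: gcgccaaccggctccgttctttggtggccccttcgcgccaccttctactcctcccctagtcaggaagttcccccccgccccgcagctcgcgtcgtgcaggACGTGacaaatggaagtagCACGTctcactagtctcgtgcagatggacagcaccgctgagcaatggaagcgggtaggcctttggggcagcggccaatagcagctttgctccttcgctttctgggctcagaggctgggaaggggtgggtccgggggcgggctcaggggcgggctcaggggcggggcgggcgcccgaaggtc

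The core appeared in 2 copies as GCGTG in the Eno1 window, in 2 copies as ACGTG in the Pkm and Pgk1 windows, and in 0 copies in the Tpi1 window. The table holds 16 starts for the 10 genes. ACGTG occurred in 7 of these 16 windows (in Hk1, Aldoa, Gapdh, Pgk1, Pgam1 and Pkm), against 19.6% of all 32851 promoters of the same length. GCGTG occurred in 7 of 16 (in Hk1, Pfkl, Gapdh, Pgam1 and Eno1), against 32.4% of all promoters. At least 1 of the pair was present in 11 of 16 windows, against 43.8% of all promoters. Some windows of Aldoa and of Eno1 overlap, so the same copies were counted again in a neighbouring window. Counted by gene, ACGTG was at a start of 6 of the 10 genes, against 21.8% of all genes. GCGTG was at a start of 5 of the 10, against 35.2%. By gene, any start of 8 of the 10 genes held at least 1 of the pair, all but Gpi1 and Tpi1, against 46.7% of all genes. A gene with more starts has more places for a match, and the 10 genes had 16 starts, against 32851 promoters for 27025 genes. The shares were not adjusted for this or for the GC content of the windows. The other annotated start of Pkm, at chr9:59656326-59656625, held 0 copies of either. CACGTG, the E-box, which contains ACGTG, occurred in 0 of 16 windows and in 7.15% of all promoters. GGGCGG, the core of the GC box bound by Sp factors, occurred in 10 of 16 windows and in 35.7% of all promoters. By gene it was at a start of 8 of the 10, against 38.2% of all genes. These matches describe letters in a window. Pfkl, Eno1 and Pkm, with the core at a start, had log2 fold changes (Terf1_flox over control) of -2.67, -2.27 and -2.01. Tpi1 and Gpi1, without it, stood at -1.62 and -1.55. Aldoa, Hk1, Pgam1, Pgk1 and Gapdh, with it, lay between -1.495 and -0.33. Whether the core has a part in these values was not tested.

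The comparison of Terf1_flox with control asks how expression of the pathway differs after deletion of Terf1 in tubule cells. All 10 genes had a lower mean in Terf1_flox libraries than in control libraries, and in 9 of 10 every Terf1_flox library was below every control library. Across all 14822 genes, 7831 had a log2 fold change below 0, and 10.8% had groups that did not overlap in this direction. The median log2 fold change over the 10 was -1.52, against -0.08 over all genes tested. Together the 10 genes took 0.131%, 0.176% and 0.153% of all reads in Terf1_flox libraries, against 0.372%, 0.470% and 0.531% in control libraries. The Terf1_flox libraries all lay far under the control libraries in this share. In a bulk sample, fewer cells of a type that expresses these genes and less of their RNA per cell cannot be told apart.

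**Figure D1:**
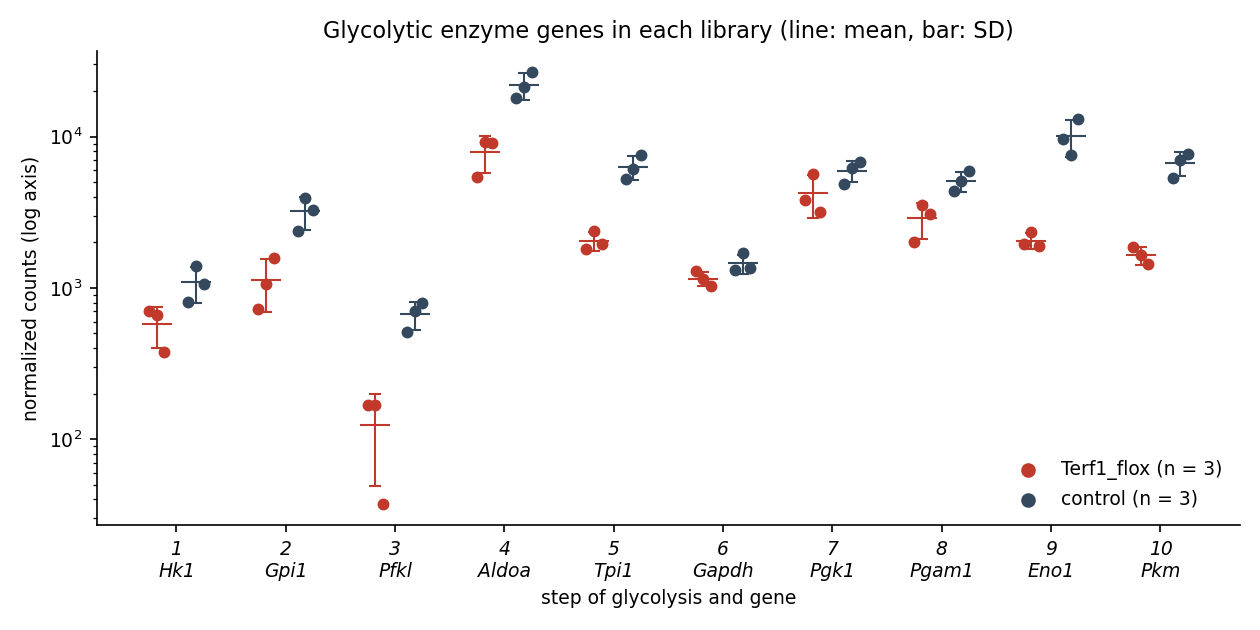
Normalized counts (log axis) of the 10 glycolytic enzyme genes in each of 3 Terf1_flox and 3 control libraries, in the order of the steps; horizontal lines are means and bars the SD. The groups overlap at Pgk1 alone, the values of Gapdh lie close together, and those of Pfkl, Eno1 and Pkm lie farthest apart.

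The first step is the phosphorylation of glucose by hexokinase. Hk1, the hexokinase found in most tissues and able to dock on mitochondria, had 699.4, 657.8 and 375.5 normalized counts in Terf1_flox libraries, against 809.3, 1400.2 and 1058.6 in control libraries. Terf1_flox library 3 was the lowest, and the highest Terf1_flox library came close to the lowest control library. The log2 fold change was -0.93 ± 0.38 (SE, on the scale of log2 of the normalized count plus 1, as are all those below). limma gave it an adjusted p of 0.322.

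Gpi1, which converts glucose phosphate to fructose phosphate, had 725.5, 1059.1 and 1585.8 normalized counts in Terf1_flox libraries, against 2376.1, 3956.4 and 3279.1 in control libraries. The Terf1_flox libraries were widely spread, yet none reached the lowest control library. On the log2 scale Gpi1 stood at -1.55 ± 0.35, or 2.93-fold lower, with an adjusted p of 0.128 by limma.

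Pfkl, the liver-type subunit of phosphofructokinase, which catalyses the committed step, had 168.6, 168.3 and 37.4 normalized counts in Terf1_flox libraries, against 512.9, 701.5 and 794.9 in control libraries. It had the lowest log2 fold change of the 10 and the widest interval. The log2 fold change was -2.67 ± 0.65 (95% interval -4.16 to -1.19; limma adjusted p 0.147), and it was -1.96 without Terf1_flox library 3, where the gene was lowest. Of all genes tested, 4.93% had a lower value than Pfkl.

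Aldoa encodes the aldolase that cuts fructose bisphosphate, and per kilobase of transcript it was the most abundant of the 10 in both groups. It had 5410.5, 9180.1 and 9113.1 normalized counts in Terf1_flox libraries, against 18025.0, 21139.4 and 26631.5 in control libraries. The groups lay well apart, and Terf1_flox library 1 was the lowest. The gene was 2.82-fold lower (log2 fold change -1.495 ± 0.25), and its adjusted p by limma was 0.0814.

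Tpi1, which interconverts the triose phosphates, had 1813.3, 2381.0 and 1952.2 normalized counts in Terf1_flox libraries, against 5256.2, 6118.1 and 7567.8 in control libraries. Both groups were tight and lay well apart. It was 3.07-fold lower in Terf1_flox libraries (log2 fold change -1.62 ± 0.23, limma adjusted p 0.0805). Leaving out single libraries moved it only between -1.74 and -1.48.

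Gapdh, the dehydrogenase that yields NADH and is widely used as a reference gene, differed least. It had 1291.2, 1138.1 and 1033.3 normalized counts in Terf1_flox libraries, against 1311.6, 1692.8 and 1355.4 in control libraries. The highest Terf1_flox library was just under the lowest control library. The log2 fold change was -0.33 ± 0.27 (95% interval -0.93 to 0.28; limma adjusted p 0.626), an interval that includes 0.

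Pgk1, which makes the first ATP of the later reactions, had 3806.1, 5701.0 and 3167.6 normalized counts in Terf1_flox libraries, against 4881.4, 6207.7 and 6769.8 in control libraries. Terf1_flox library 2 lay above control library 1, so the groups overlapped. On the log2 scale Pgk1 stood at -0.53 ± 0.26, and limma gave an adjusted p of 0.405.

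Pgam1, the phosphoglycerate mutase of most tissues, had 2025.4, 3547.8 and 3072.4 normalized counts in Terf1_flox libraries, against 4358.9, 5064.9 and 5902.2 in control libraries. The groups did not overlap, and Terf1_flox library 1 was the lowest. The log2 fold change was -0.85 ± 0.26 (limma adjusted p 0.215).

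Eno1, the enolase that makes phosphoenolpyruvate, had 1939.5, 2327.6 and 1898.5 normalized counts in Terf1_flox libraries, against 9649.4, 7548.8 and 13099.0 in control libraries. The Terf1_flox libraries lay close together and far under the lowest control library. The gene was 4.81-fold lower (log2 fold change -2.27 ± 0.24) and ranked 1 by p-value among all genes tested, with an adjusted p of 0.0742 by limma.

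Pkm, the pyruvate kinase that makes the last ATP of the pathway, had 1878.6, 1650.3 and 1430.0 normalized counts in Terf1_flox libraries, against 5336.2, 7013.1 and 7683.9 in control libraries. Every Terf1_flox library held well under the lowest control library. Pkm was 4.02-fold lower (log2 fold change -2.01 ± 0.23) and ranked 2 by p-value, with an adjusted p of 0.0742 by limma. The last pair of enzymes of the pathway held the 2 smallest p-values of the table, although neither passed the threshold of 0.05.

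limma called 0 of the 10 genes at an adjusted p below 0.05, and 0 of all 14822 genes (0%) in either direction. At an unadjusted p below 0.05, 8 of the 10 were lower, all but Gapdh and Pgk1, against 8.43% of all genes. edgeR on the recovered reads likewise called 0 of the 10 and 0% of all genes after adjustment, with 1993 genes at an unadjusted p below 0.05 against 2095 by limma. DESeq2 on the same reads called 6 of the 10 lower, Gpi1, Pfkl, Aldoa, Tpi1, Eno1 and Pkm, against 3% of all genes. Its adjusted p was 3.4e-14 for Eno1, 1.3e-11 for Pkm, 1.5e-07 for Tpi1, 1.4e-05 for Aldoa, 0.0016 for Gpi1 and 0.0039 for Pfkl by DESeq2. Over the limma and edgeR alternatives, the adjusted p of these 6 genes ran between 0.011 for Eno1 and 0.409 for Pfkl.

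The calls of limma turned on the genes tested and on the scaling. With only genes of a mean of at least 50 tested, limma called 5 of the 10 lower, Gpi1, Aldoa, Tpi1, Eno1 and Pkm, against 0.855% of 10762 genes. With libraries set to equal totals it called 4, Aldoa, Tpi1, Eno1 and Pkm, against 0.297%. With quantile normalization it called 3, Tpi1, Eno1 and Pkm, against 0.054%. Tpi1, Eno1 and Pkm were the genes called in each of these 3 settings and by DESeq2. In every other limma setting, among them equal upper quartiles and single libraries left out, 0 of the 10 were called. Equal totals moved the median of all genes to -0.24, and equal upper quartiles moved it to 0.04. The median of the 10 genes was -1.70 and -1.40 in those settings. Each setting rescales a whole library by 1 factor, which shifts all genes alike, so the distance to all genes could hardly change.

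**Figure D2:**
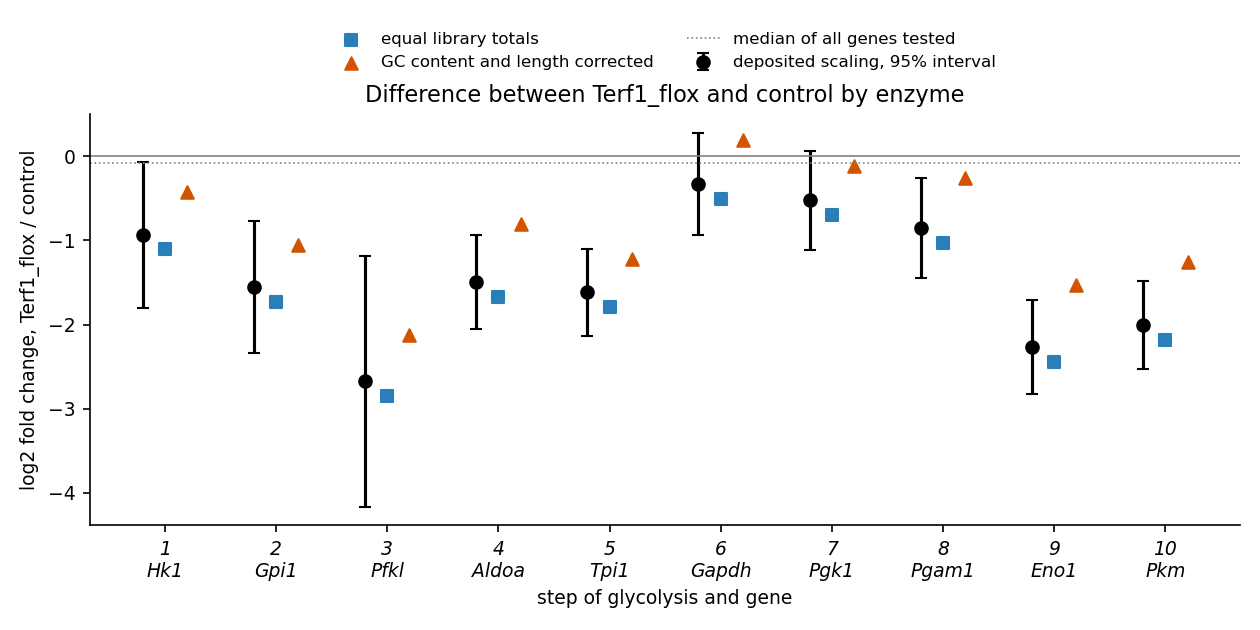
Log2 fold change, Terf1_flox over control, of each enzyme gene with the deposited scaling (circles, bars are 95% intervals), with equal library totals (squares) and after correction for transcript GC content and length (triangles); the dotted line is the median of all genes tested, -0.08. Every point is below 0 except Gapdh after the correction, at 0.19, and Pfkl, Eno1 and Pkm stay lowest in all 3.

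The transcripts of the 10 genes were richer in G and C than most, at 49.7% to 57.1% with a median of 55.2%, against 49.3% over all genes tested. After the log2 values of each library were corrected for transcript GC content and length, the median of the 10 was -0.93, against 0.01 over all genes. Pfkl stood at -2.12, Eno1 at -1.54, Pkm at -1.26, Tpi1 at -1.22, Gpi1 at -1.05 and Aldoa at -0.81. Hk1 stood at -0.42, Pgam1 at -0.26 and Pgk1 at -0.12, and Gapdh turned to 0.19. limma called 0 of the 10 after this correction, with 6 lower at an unadjusted p below 0.05, against 5.68% of all genes. The corrected values depended on which transcripts gave the GC content and length. With all annotated transcripts of a gene in place of its complete ones, a version chosen after seeing the data, Hk1 stood at -1.16, below its uncorrected value, and Gpi1 at -1.54. Eno1 stood at -1.95 and Pkm at -1.80 in that version, while Gapdh again stood at 0.19.

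Other measures of the libraries are set beside these results. Mitochondrially encoded genes took 18.1%, 16.2% and 20.6% of reads in Terf1_flox libraries, against 13.0%, 12.9% and 10.3% in control libraries. The groups did not overlap in this share, nor in the marker sums given above for the thick ascending limb and macrophages (both lower in Terf1_flox) and for lymphocytes (higher). Of the 8 thick ascending limb markers, however, 3 were below 0 and 5 above, with a median log2 fold change of 0.11. Umod was the most abundant of them. Across all 14822 genes tested, 7831 were below 0. Of the macrophage and lymphocyte markers, 3 and 2 reached the mean for testing. Markers of intercalated cells, acid-base transporting cells of the collecting system, had a median log2 fold change of -1.39 with 10 of 10 below 0, although their sum ranged from 6748 to 13102 normalized counts in Terf1_flox and from 10169 to 23417 in control, which overlap. Markers of principal cells of the collecting duct overlapped too, at 415 to 1777 in Terf1_flox and 993 to 2438 in control. Their median log2 fold change was -1.38, with 5 of 6 below 0, close to that of the intercalated cell markers. Proximal tubule markers had a median of 0.50, with 3 of 11 below 0. For the distal convoluted and connecting tubule markers the median was 0.01, with 3 of 7 below 0. The sorting marker Epcam did not overlap, with 1830.7, 1433.7 and 2977.3 normalized counts in Terf1_flox libraries, against 4510.2, 5086.9 and 4415.8 in control libraries. Cdh16, whose promoter drives the Cre, had 4246.6, 4767.1 and 4063.2 in Terf1_flox libraries, against 4540.1, 7152.3 and 5230.5 in control libraries, which overlap, and turned to 0.25 on the log2 scale after the correction for GC content and length. The part of these differences in the lower glycolytic values was not tested.

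A ratio between a pair of genes within 1 library does not depend on how libraries are scaled, so each gene was also set against Gapdh. Because Gapdh differed least of the 10, a lower mean log2 ratio in Terf1_flox was fixed beforehand for each of the others. The 9 ratios also share this denominator, so they are not independent of each other. Pkm over Gapdh was 1.45, 1.45 and 1.38 in Terf1_flox libraries, against 4.07, 4.14 and 5.67 in control libraries. Eno1 over Gapdh was 1.502, 2.05 and 1.84 in Terf1_flox libraries, against 7.36, 4.46 and 9.66 in control libraries. Every Terf1_flox library was below every control library in both ratios. On the log2 scale the difference in the ratio was -2.36 for Pfkl, -1.94 for Eno1, -1.68 for Pkm, -1.29 for Tpi1, -1.22 for Gpi1, -1.17 for Aldoa and -0.60 for Hk1. In these 7 the groups did not overlap. The two-sided exact permutation test gave 0.1, its lower limit with 3 libraries a group, or 0.129 after Benjamini-Hochberg adjustment over the 9 ratios. For Pgam1 (-0.52, exact permutation p = 0.2) and Pgk1 (-0.20, exact permutation p = 0.6) they overlapped.

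The share of each gene within the summed normalized counts of the 10 needs no single gene to divide by. Eno1 made up 8.74 ± 0.95% of the sum in Terf1_flox and 16.1 ± 3.3% in control (SD, n = 3 each). Pgk1 made up 17.7 ± 3.8% in Terf1_flox and 9.54 ± 0.58% in control, and Gapdh 4.998 ± 1.34% and 2.37 ± 0.49%. Aldoa, at 33.0 ± 5.6% in Terf1_flox and 35.0 ± 0.8% in control, held about a like share in both. Hk1 made up 2.50 ± 0.98% in Terf1_flox and 1.76 ± 0.47% in control, and Pgam1 11.997 ± 1.5% and 8.20 ± 0.20%. The shares of Hk1 overlapped between the groups and those of Pgam1 did not. Both had higher mean shares in Terf1_flox, and lower mean ratios to Gapdh.

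Per kilobase of transcript, the control libraries ordered the genes as Aldoa at 14764 normalized counts, Tpi1 at 5242, Eno1 at 5141, Pgk1 at 3262, Pkm at 2986, Pgam1 at 2878, Gapdh at 1142, Gpi1 at 1111, Hk1 at 291 and Pfkl at 180. In that order Tpi1 and Eno1, then Pgk1, Pkm and Pgam1, and then Gapdh and Gpi1 overlapped among themselves over the 3 libraries. In Terf1_flox libraries the levels per kilobase were 5319 for Aldoa, 2315 for Pgk1, 1701 for Tpi1, 1624 for Pgam1, 1046 for Eno1, 907 for Gapdh, 739 for Pkm, 390 for Gpi1, 154 for Hk1 and 33.5 for Pfkl. Pgk1, Tpi1 and Pgam1 overlapped there, as did Pgam1 with Eno1, Eno1 with Gapdh and Gapdh with Pkm. Eno1 and Pkm both exceeded Gapdh in every control library. Pkm was below Gapdh in every Terf1_flox library, while Eno1 was below it in Terf1_flox library 1 and above it in libraries 2 and 3.

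Several of these genes have near-copies in the genome, so their counts depend on how shared reads were assigned, a step the labels do not describe. In the GENCODE transcripts, 82.5% of the windows of 50 bases along Gapdh occurred exactly in another gene, 72.2% along Eno1, 68.0% along Pgk1, 41.5% along Pgam1, 34.4% along Pkm and 25.3% along Gpi1. For Aldoa the share was 13.5%, for Tpi1 7.51%, for Hk1 2.55% and for Pfkl 0.05%. Gapdh shared windows with 222 other genes, 8 of them with a row of their own, and Gpi1 with 122, 96 of them with a row. Matches on either strand count, and a gene that shares a window of 50 bases need not be a near-copy. Eno1 shared windows with 9 others, among them Eno1b, which had 85.9, 113.9 and 1.0 normalized counts in Terf1_flox libraries, against 398.5, 329.8 and 436.5 in control libraries. The part of shared reads in the values was not tested.

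Most steps can be served by other isozymes, and 12 of 17 further genes of these steps had values, 11 of them tested. Of the 11, 9 were below 0, against 7831 of all 14822 genes, and the median log2 fold change was -0.87. limma called 0 of the 11, with 3 lower at an unadjusted p below 0.05, against 8.43% of all genes. DESeq2 placed 2 of them past its threshold, Pfkm and Pgam2, both lower, against 3% of all genes. The step of phosphofructokinase differed in makeup between the groups. Pfkp, the platelet-type subunit, had 1366.2, 1101.2 and 1131.4 normalized counts in Terf1_flox libraries, against 1236.8, 1288.6 and 1642.7 in control libraries (-0.21 ± 0.27, limma adjusted p 0.777). Pfkm, the muscle-type subunit, had 457.9, 266.8 and 173.1 normalized counts in Terf1_flox libraries, against 773.3, 1160.9 and 1405.9 in control libraries (-1.96 ± 0.46, limma adjusted p 0.138; DESeq2 adjusted p 0.0032). Pfkp overlapped between groups, whereas Pfkm and Pfkl did not. Per kilobase, Pfkp held 65.8%, 69.8% and 82.3% of the step in Terf1_flox libraries, against 46.8%, 38.6% and 40.3% in control libraries. Pfkl held 7.43%, 9.75% and 2.49% of it in Terf1_flox libraries, against 17.8%, 19.2% and 17.9% in control libraries.

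**Figure D3:**
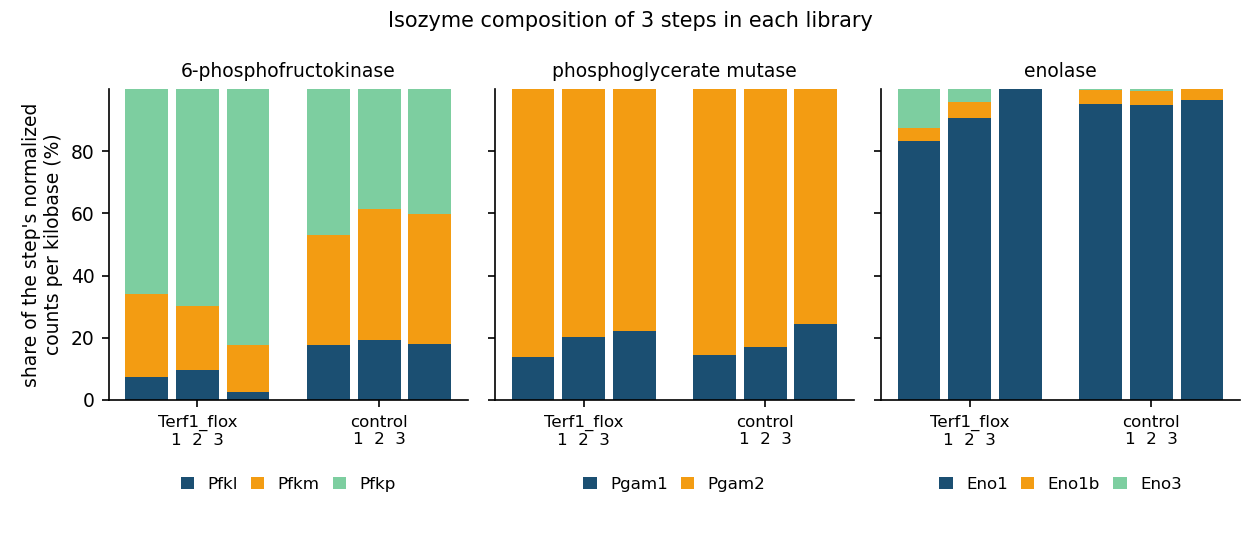
Share of each step's normalized counts per kilobase of transcript (percent) held by each isozyme, in 3 Terf1_flox and 3 control libraries, for phosphofructokinase, phosphoglycerate mutase and enolase. Pfkp holds at least 65.8% of its step in each Terf1_flox library and at most 46.8% in each control library, and the mutase is split alike in both groups.

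Within a library, the log2 ratio of Pfkl to Pfkp differed by -2.47 between the groups without overlap, with an exact permutation p of 0.1 and an adjusted p of 0.4 over 8 pairs of a member and an isozyme. These pairs were added after their values were seen.

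At the mutase step the isozymes went together. Pgam2, known as the muscle form, held 81.2 ± 4.3% of the step per kilobase in Terf1_flox and 81.3 ± 5.1% in control. It had 5908.7, 6646.2 and 5081.3 normalized counts in Terf1_flox libraries, against 12081.8, 11723.5 and 8653.2 in control libraries (-0.87 ± 0.20, limma adjusted p 0.134; DESeq2 adjusted p 0.010). Its groups did not overlap, and its log2 fold change was that of Pgam1 within the error of either. Bpgm, which makes the bisphosphoglycerate that the mutases need, had 264.3, 539.8 and 309.7 normalized counts in Terf1_flox libraries, against 585.9, 568.1 and 1030.9 in control libraries (-0.98 ± 0.44, limma adjusted p 0.360).

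The remaining isozymes were low or scattered. Eno1b stood at -3.83 ± 1.41, and at -1.95 without Terf1_flox library 3, where it had 1.0 normalized count. Eno3, the muscle enolase, ranged from 0 to 218 in Terf1_flox and from 11.8 to 39.1 in control. Hk2 ranged from 0 to 65.7 in Terf1_flox and from 0 to 38.7 in control, and Hkdc1, a hexokinase-related gene, from 1.0 to 99.0 and from 37.1 to 210. Aldoc (-0.99 ± 0.56) and Adpgk, an ADP-dependent glucokinase (0.00 ± 1.01), overlapped between groups, as did Eno3, Hk2 and Hkdc1, while Eno1b did not. Summed per kilobase over its isozymes, every step had a lower mean in Terf1_flox, with log2 differences between -2.20 at enolase and -0.33 at the Gapdh step; the ranges of the groups overlapped at Pgk1, which has no tested isozyme here.

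The genes around the pathway were mixed. Of all 14822 genes tested, 7831 were below 0, and DESeq2 called 3% lower. Of 12 glucose and lactate transporter genes tested, 8 were below 0, with a median log2 fold change of -0.48, and DESeq2 called 2 lower, Bsg and Slc5a1. Bsg, the chaperone that brings lactate carriers to the membrane, had 5033.0, 5287.4 and 6395.9 normalized counts in Terf1_flox libraries, against 10845.8, 10091.7 and 14046.3 in control libraries (-1.06 ± 0.20, limma adjusted p 0.0926; DESeq2 adjusted p 5.8e-04). Slc5a1, a sodium-coupled glucose transporter, stood at -1.08 ± 0.30, and Slc2a1, the basal glucose transporter, at -0.81 ± 0.43 with overlapping groups. Slc2a2, the proximal tubule glucose transporter, had 71.8, 119.0 and 158.9 normalized counts in Terf1_flox libraries, against 7.9, 81.0 and 5.5 in control libraries, which also overlapped.

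Of 4 regulators of phosphofructokinase tested, 2 were below 0. Pfkfb2, which makes and removes a fructose bisphosphate that activates phosphofructokinase, ran against the enzymes. It had 840.8, 764.6 and 540.4 normalized counts in Terf1_flox libraries, against 290.3, 82.0 and 348.1 in control libraries. The groups did not overlap, but the value did not pass any adjusted test (1.79 ± 0.59, limma adjusted p 0.237; DESeq2 adjusted p 0.067), and it was 1.14 without control library 2. Tigar, a phosphatase that opposes it (-0.48 ± 0.88), and Pfkfb3 (0.77 ± 1.65) and Pfkfb4 (-0.07 ± 2.17) scattered widely.

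At the end of the pathway, Ldhb, the lactate dehydrogenase subunit of oxidative tissue, had 38519.6, 60991.8 and 51281.4 normalized counts in Terf1_flox libraries, against 99847.4, 61046.0 and 120795.0 in control libraries. Its highest Terf1_flox library all but met its lowest control library (-0.87 ± 0.26, limma adjusted p 0.202; DESeq2 adjusted p 0.033). Ldha, the subunit that favours lactate formation, overlapped (-0.26 ± 0.32), as did Ldhd (-2.35 ± 1.12). Of 14 genes for pyruvate entry into mitochondria, 10 were below 0, against 7831 of all 14822, with a median of -0.50. DESeq2 called 3 lower and 1 higher, against 444 and 328 of all genes. Mpc1, a subunit of the mitochondrial pyruvate carrier, had 34976.8, 40788.5 and 33072.4 normalized counts in Terf1_flox libraries, against 25608.0, 17066.7 and 25338.4 in control libraries (0.70 ± 0.19, limma adjusted p 0.178; DESeq2 adjusted p 0.042). Pdha1, a subunit of pyruvate dehydrogenase (-0.78 ± 0.23), Pdk2, a kinase that inhibits it (-1.29 ± 0.36), and Pdp2, a phosphatase that activates it (-3.10 ± 0.78), were each lower without overlap.

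**Figure D4:**
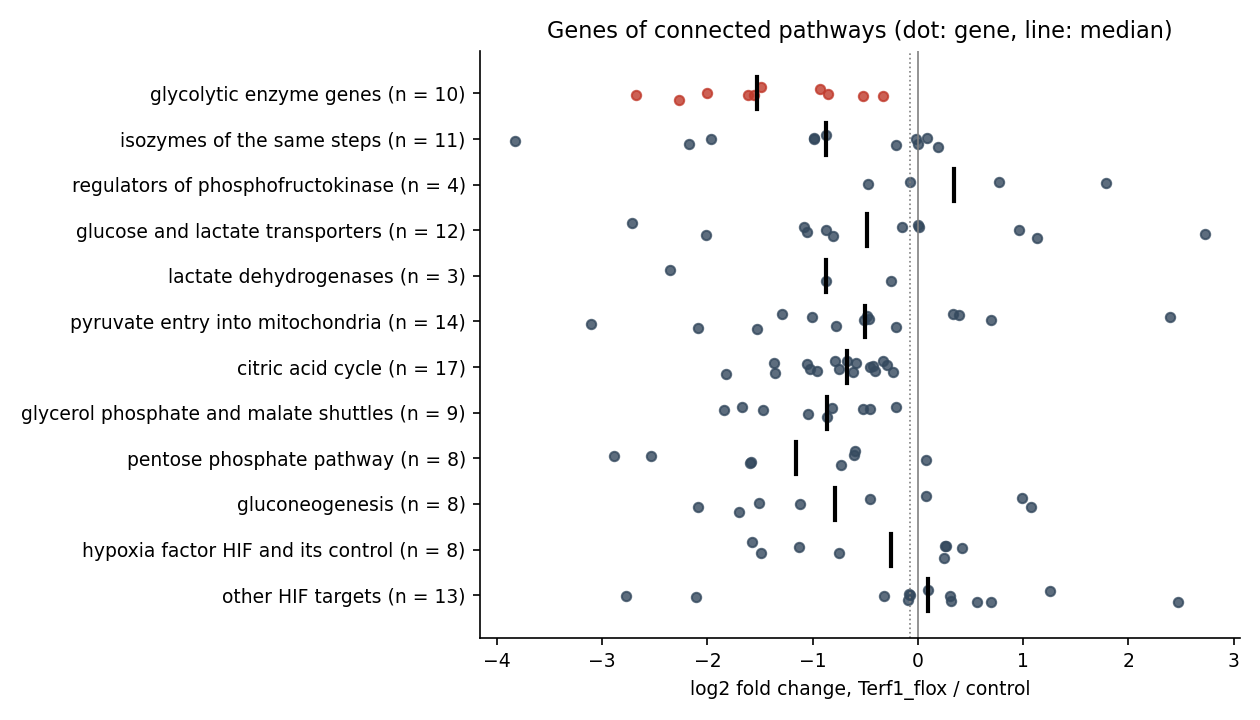
Log2 fold change, Terf1_flox over control, of each tested gene (dots) in glycolysis and 11 connected lists, with list medians (bars), 0 (solid line) and the median of all genes tested (dotted line). The medians run between -1.52 for the 10 glycolytic enzyme genes and 0.35 for the 4 regulators of phosphofructokinase, and every gene of the citric acid cycle lies below 0.

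Lower values were not limited to glycolysis. Across all 14822 genes tested, 7831 were below 0 and DESeq2 called 3% lower. All 17 citric acid cycle genes were below 0, with a median of -0.67, and DESeq2 called 6 of them lower. Idh2, a mitochondrial isocitrate dehydrogenase, had 4491.3, 4352.4 and 4748.3 normalized counts in Terf1_flox libraries, against 11239.9, 10514.9 and 13335.1 in control libraries (-1.36 ± 0.17, limma adjusted p 0.0742). Sdha of succinate dehydrogenase (-1.03 ± 0.18) and Mdh2, malate dehydrogenase (-1.37 ± 0.27), also did not overlap. All 9 genes of the shuttles that carry the electrons of cytosolic NADH into mitochondria were below 0, with a median of -0.86. DESeq2 called 3 of them lower, Got2 (-1.84 ± 0.34), Slc25a11 (-1.68 ± 0.31) and Got1 (-1.48 ± 0.30). Slc25a12 (-1.04 ± 0.44) overlapped. Of 8 pentose phosphate pathway genes 7 were below 0, with a median of -1.16 and 3 called lower by DESeq2. Those were Taldo1 (-1.59 ± 0.30), Pgd (-2.53 ± 0.63) and Tkt (-2.88 ± 0.88, and -1.87 without Terf1_flox library 1), while Rpe stood at -1.60 ± 0.57. limma called 0 genes in each of these lists at an adjusted p below 0.05. Lower at an unadjusted p below 0.05 were 10, 4 and 4, against 8.43% of all genes.

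Gluconeogenesis, which runs several of the same steps backwards, had 5 of 8 genes below 0, against 7831 of all 14822, and a median of -0.79. DESeq2 called 0 of the 8, with 1 lower at an unadjusted p below 0.05 by limma, against 8.43% of all genes. The named genes overlapped between groups. Slc37a4 stood at -1.70 ± 0.71, G6pc3 at -1.12 ± 0.55, Fbp2 at -2.09 ± 1.76 and Pck1, the proximal tubule carboxykinase, at 1.08 ± 0.53. HIF and the genes that control it gave 4 of 8 below 0 (median -0.25), and 13 targets of HIF outside glycolysis gave 6 below 0 and a median of 0.09, with 0 called by limma or DESeq2 in either list. At an unadjusted p below 0.05 by limma, 1 gene of HIF control and 0 of its other targets were lower, against 8.43% of all genes. Hif1a, the oxygen-regulated subunit, had 647.2, 1212.0 and 1450.2 normalized counts in Terf1_flox libraries, against 658.0, 643.4 and 1128.8 in control libraries (0.42 ± 0.41, limma adjusted p 0.693). Egln2, a hydroxylase that marks HIF for destruction, stood at -1.49 ± 0.61 and did not overlap. Hif1an (-1.13 ± 0.70) and Hif3a (-1.57 ± 1.46) overlapped. Among the targets, Higd1a (0.30 ± 0.19), Ankrd37 (2.47 ± 1.71) and Adm (-2.77 ± 2.20) overlapped. Ddit4 (-2.11 ± 1.24) did not, but was low in both groups, at 1.0 to 10.9 normalized counts in Terf1_flox and 14.3 to 33.2 in control.

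The pattern of the 10 genes over the 6 libraries was averaged and set against every other gene with a mean of at least 50 normalized counts, leaving out genes with provisional Gm or Rik names. Among 9752 such genes, the closest by root mean square difference of centred log2 values were Polr2m at 0.118, Sgk2 at 0.133, Vcp at 0.134, Cfl1 at 0.135, Uchl5 at 0.138 and Tmem176a at 0.146. Cfl1, the actin-severing cofilin, had 2334.3, 2310.2 and 2195.0 normalized counts in Terf1_flox libraries, against 5201.7, 5632.0 and 6709.0 in control libraries. Of the enzyme genes themselves, Tpi1 was closest to their mean at 0.134, followed by Aldoa at 0.270 and Pkm at 0.322. Each of the 10 is itself part of that mean, so these distances are not comparable with those of the genes above. Gapdh at 0.582 and Pfkl at 0.883 were farthest, with Gapdh differing less between the groups than the mean and Pfkl more.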

How the data were processed

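The authors deposited 1 table of normalized counts, a signal of library-scaled reads, for 16095 genes in 6 libraries. DESeq2 and build GRCm39 are named in the submitters' processing notes; names of an aligner, a counter or an annotation were not given in the sources used here. Dividing each library's deposited values by its smallest step gave whole reads for 100% of them (tolerance 0.01 read); 0 columns of other samples were present. Intervals cover the spread between libraries, which may be technical where libraries do not come from separate mice.

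Genes with a mean of at least 10 were tested with limma 3.58.1 in R 4.3.3 on log2 of the normalized count plus 1, with a mean-variance trend, two-sided, with Benjamini-Hochberg adjustment over all 14822 genes. Fold changes are Terf1_flox over control. edgeR 4.0.16 (quasi-likelihood) and DESeq2 1.42.0 (Wald) were run on the recovered reads as alternatives, besides other pseudocounts, filters, scalings, weights, covariates and libraries left out. The scripts were tested on simulated data.

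Transcript length and GC content (medians over a gene's complete transcripts) and shared windows (along its longest one) were taken from GENCODE transcripts on build GRCm38. Promoter sequences are from RefSeq. Gene coordinates on GRCm39 were not used here. The 10 genes and the lists were chosen with earlier results of these data known. Named were the 10 genes, Terf1, Cdh16, Epcam, every isozyme with a mean of at least 10, up to 4 genes of each other pathway list by smallest limma p, and the 6 genes with the most like pattern; some genes under this rule are not reported here by name but stay in the counts of their lists. Figures were drawn with matplotlib 3.10.9.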

Additional observations from a re-analysis of the deposited data

How the results depend on the processing

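The lower values of the 10 enzyme genes kept their direction in every alternative except for Gapdh, and none of the 10 lost a call, since limma had called 0. Of 210 values of single genes among the 10 under the alternatives, 190 stayed on the same side of the threshold, 18 crossed it to a call and 2 turned. Genes called higher numbered 40 when the filter on the mean was 50, 1 after scaling to equal totals and 328 by DESeq2, against 0. Genes called lower numbered 92, 44 and 444 in those settings and 8 with quantile normalization, against 0. The enzyme genes called numbered 5, 4, 6 and 3 in the same settings. Their median log2 fold change was -0.93 with the GC content and length correction, -1.15 when that correction used all annotated transcripts (added after seeing the data), and between -1.68 and -1.26 with single libraries left out, the last of these without Terf1_flox library 1. Of the genes at an unadjusted p below 0.05, 40.3% were higher with the deposited scaling, 25.4% after setting totals equal and 50.9% after setting upper quartiles equal.

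The direction of some single values turned, and the cause was not tested. With the correction and its version on all transcripts, Gapdh stood at 0.19 and 0.19, Pfkp at 0.028 and 0.14, Adpgk at 0.47 and 0.36 and Pfkfb4 at 0.45 and 0.41. The correction alone turned Cdh16 (0.25) and Ldha (0.25), and its version on all transcripts turned Higd1a (-0.10). Adpgk was 0.0041 with a pseudocount of 0.5, 0.12 with equal upper quartiles, 0.17 with quantile normalization and 0.10 with Xist as a covariate. Pfkfb4 was 0.12 with a pseudocount of 5, 0.016 with quantile normalization, 0.61 by edgeR and 0.62 by DESeq2. Hk2 was -0.018 with equal totals and Eno3 -0.11 with a pseudocount of 0.5. With single libraries left out, Hk2 ran between -1.05 and 1.60, Eno3 between -1.34 and 2.55, Adpgk between -0.91 and 0.59, Pfkfb3 between -0.51 and 2.73 and Pfkfb4 between -1.09 and 1.55.

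The groups share replicate numbers, but libraries of the same number did not deviate together, with correlations of -0.07, 0.01 and -0.02 over 1000 genes, and no Terf1_flox library correlated best with the control library of its own number. The fit with the replicate number as a block called 0 genes, with adjusted p between 0.206 and 0.687 by limma for the 10 enzyme genes. It moved the genes at an unadjusted p below 0.05 to 1884, against 2095. With 3 libraries in each group the exact tests could not give a p below 0.1.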
